A study of Oryza sativa with 4 samples.

Results

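Among the genes already transcribed in rice seedlings before chilling, 136 identifiers had risen at least 8-fold in both of 2 rice lines after 36 h of chilling. They were taken from a table of 88509 identifiers, of which 40745 begin with BGIOSGA. The choice used the FPKM values themselves (fragments per kilobase of gene, relative to the reads of the library). An identifier was taken when log2 of the 36 h over 0 h ratio of (FPKM + 1) was at least 3 in each line and its FPKM was at least 1 in either 0 h library. That level condition left 22919 BGIOSGA identifiers, of which the 136 are 0.593%. All 4 libraries were used by this choice, so the rise is a description of the chosen genes and is given with no test.

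RNA came from whole plants at the 3-leaf stage. The lines were DC90, a chromosome substitution line described as tolerant of chilling, and 9311 (also named YD6), its recurrent parent, described as sensitive. Each line was sampled at 36 h of chilling and before it (0 h), and the 4 groups therefore are DC90 at 36 h, DC90 at 0 h, 9311 at 36 h and 9311 at 0 h. RNA of 3 replicates was mixed into 1 library per group, so no group has a replicate and no difference between groups can be set against a spread. No unchilled seedlings were sampled at 36 h, and effects of chilling, seedling age and time of day cannot be told apart. In RNA of whole plants, more cells of a type and more RNA per cell cannot be told apart either. The 4 library totals behind the values lay between 10580163 and 11800685 reads.

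Rice is a cereal of warm climates and is injured by cold well above freezing. Chilling stiffens membranes, slows photosynthesis and lets reactive oxygen species build up. In plants, cold signals run through calcium and through transcription factors such as ICE1 and the DREB1/CBF family, which switch on genes for protective proteins, osmolytes and antioxidant enzymes. A chromosome substitution line holds pieces of a donor genome in an otherwise parental genome, so most of its genome is that of the parent. The sources used here do not pair the BGIOSGA identifiers with gene names, 0 of the 136 were found in the reference gene table, and the genes are therefore described by identifier, level and behaviour. For the same reason the whole-plant label was not checked against marker genes.

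Most of the 136 genes were weakly transcribed before chilling and moderately to strongly transcribed after it. In DC90 the median level was 77.2 FPKM at 36 h and 3.30 at 0 h, and in 9311 it was 97.8 FPKM at 36 h and 3.25 at 0 h. For the 22919 identifiers with the same level condition, the median was 13.5 FPKM at 36 h and 13.2 at 0 h in DC90, and 12.9 at 36 h and 13.2 at 0 h in 9311. The genes thus began below the middle of the transcribed genes and ended above it. The levels at both times were used by the choice, which favours low 0 h levels and high 36 h levels. At 36 h, 54 of them had at least 100 FPKM in both lines and 9 had at least 500.

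**Figure D1:**
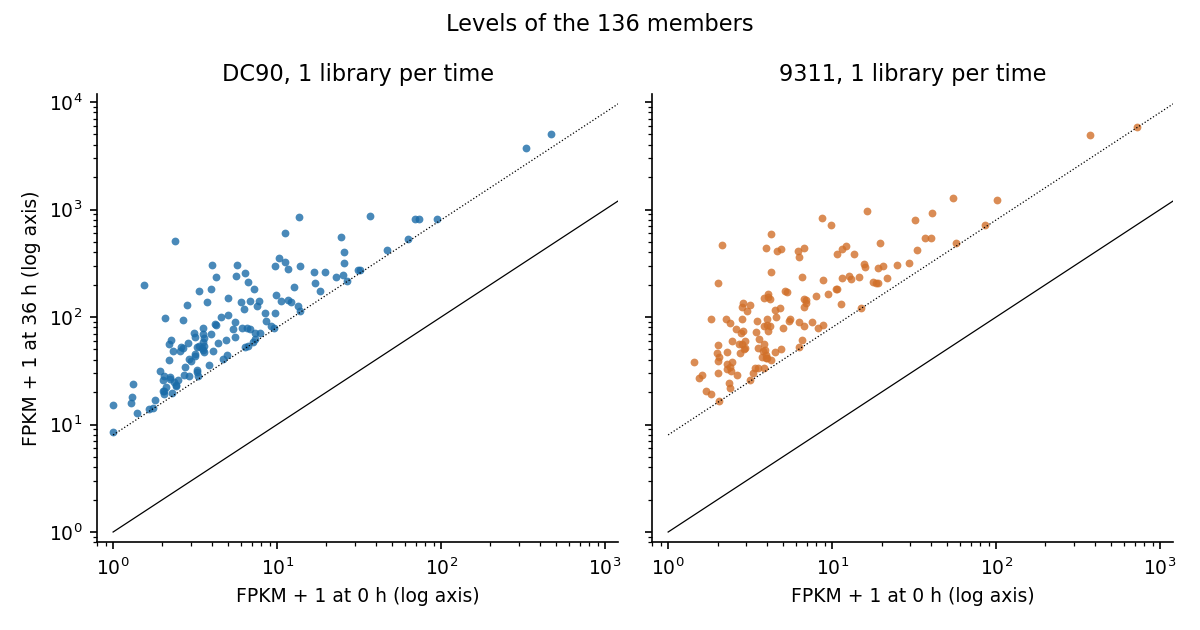
Level of each of the 136 genes at 36 h (vertical axis) against 0 h (horizontal axis) in DC90 (left) and 9311 (right), as FPKM + 1 on log axes, 1 point per gene. The solid line marks equal levels and the dotted line an 8-fold rise, on or above which all points lie by choice; both panels show a dense group below 10 FPKM at 0 h and 2 genes far to the right, above 300 FPKM at 0 h.

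The genes took up a larger part of the summed FPKM of BGIOSGA identifiers after chilling. A choice for an 8-fold rise in both lines largely requires this, so the shares and ranks below only give its size. In DC90 this part was 2.70% at 36 h and 0.166% at 0 h, and in 9311 it was 3.51% at 36 h and 0.203% at 0 h. The 2 most abundant genes made up 30.9% of the members' sum at 36 h and 41.8% at 0 h in DC90, and 28.9% at 36 h and 48.9% at 0 h in 9311. Without them the part was 1.86% at 36 h and 0.0964% at 0 h in DC90, and 2.50% at 36 h and 0.104% at 0 h in 9311. Ranked by FPKM among all BGIOSGA identifiers, 35 of the genes stood in the top 1000 of DC90 at 36 h and 2 at 0 h. In 9311, 45 stood there at 36 h and 2 at 0 h.

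A detectable level before chilling was not equally firm for all of them. The level of 1 FPKM was reached at 0 h in both lines by 118 genes, in DC90 alone by 7 and in 9311 alone by 11. BGIOSGA021712 and BGIOSGA033416 were listed at 0 in DC90 before chilling. BGIOSGA021712 had 31 reads in DC90 at 36 h, which is at least 11.4-fold higher than at 0 h when the 0 h library is set at 3 reads. That floor leaves out the counting error of the 36 h reads, and the lower 95% counting bound of the same rise was 8.76. BGIOSGA033416 had 13 reads, which is at least 4.80-fold higher on the same floor, with a counting bound of 3.37, so its 8-fold rise in DC90 is not secured by its reads. In 30 of the 136 genes at least one 0 h library gave fewer than 10 reads, whereas 124 had at least 100 reads in both 36 h libraries. With reads counted alone, the lower 95% counting bound of the rise was at least 8 in both lines for 109 genes.

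High starting levels were rare among these genes. Of the 6886 identifiers with a mean 0 h level of 20 to 100 FPKM, 13 were members, or 0.189%, and of the 1948 at 100 FPKM and above, 2 were, or 0.103%. Of the 3482 identifiers at 2 to 5 FPKM, 48 were members, or 1.38%.

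The 2 genes with the highest levels had been abundant before chilling as well. BGIOSGA001812 had 5042 FPKM at 36 h and 467 at 0 h in DC90, and 4976 at 36 h and 372 at 0 h in 9311. Without a pseudocount this was a 10.8-fold rise in DC90, with a counting interval of 10.3 to 11.3, and a 13.4-fold rise in 9311, with an interval of 12.7 to 14.1. It was the sixth most abundant BGIOSGA identifier in DC90 at 36 h (rank 6, against rank 361 at 0 h) and had rank 7 in 9311 (rank 448 at 0 h). BGIOSGA001791 had 3762 FPKM at 36 h and 331 at 0 h in DC90, and 5804 at 36 h and 724 at 0 h in 9311. It was lower in DC90 than in 9311 at both times, by a read ratio of 0.648 at 36 h and 0.457 at 0 h, and its rise of 11.4-fold in DC90 stood beside 8.01-fold in 9311. Both have short coding lengths, 375 bases for BGIOSGA001812 and 282 for BGIOSGA001791.

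Other abundant genes at 36 h started between 8.78 and 101 FPKM. BGIOSGA006198 had 820.2 FPKM at 36 h and 68.4 at 0 h in DC90, and 1267 at 36 h and 53.6 at 0 h in 9311. BGIOSGA017804 had 808 FPKM at 36 h and 93.2 at 0 h in DC90, and 1219 at 36 h and 101 at 0 h in 9311. Each was lower in DC90 than in 9311 at 36 h, with read ratios of 0.647 for BGIOSGA006198 and 0.663 for BGIOSGA017804. BGIOSGA006055 had 871 FPKM at 36 h and 35.7 at 0 h in DC90, and 936 at 36 h and 39.6 at 0 h in 9311, a 24.4-fold rise in DC90 and a 23.6-fold rise in 9311. BGIOSGA006134 had 814 FPKM at 36 h and 72.8 at 0 h in DC90, and 722 at 36 h and 84.1 at 0 h in 9311. BGIOSGA006134 rests on 21860 reads in DC90 and 19972 in 9311 at 36 h, and its read ratio of DC90 to 9311 there was 1.13. BGIOSGA001549 and BGIOSGA025849 came from lower levels. BGIOSGA001549 had 607 FPKM at 36 h and 10.1 at 0 h in DC90, and 958 at 36 h and 15.2 at 0 h in 9311. BGIOSGA025849 had 847 FPKM at 36 h and 12.6 at 0 h in DC90, and 709 at 36 h and 8.78 at 0 h in 9311.

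The size of the rise varied widely above the threshold. On the log2(FPKM + 1) scale the median ratio of 36 h to 0 h was 3.76 in DC90 (quartiles 3.31 and 4.36) and 4.19 in 9311 (quartiles 3.59 and 4.75). For all 22919 identifiers the medians were -0.04 in DC90 and -0.11 in 9311. A ratio of at least 16-fold in both lines was reached by 46 genes, of at least 32-fold by 16 and of at least 64-fold by 2. Those 2 were BGIOSGA007022 and BGIOSGA000971.

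BGIOSGA007022 had the highest mean of the 2 log2(FPKM + 1) ratios, 7.76. It gave 10565 reads at 36 h and 32 at 0 h in DC90, and 9981 reads at 36 h and 26 at 0 h in 9311. Its levels in the lines were close at both times, at 507 FPKM in DC90 and 465 in 9311 at 36 h, and 1.39 in DC90 and 1.12 in 9311 at 0 h. BGIOSGA000971 had 307 FPKM at 36 h and 3.00 at 0 h in DC90, and 588 at 36 h and 3.27 at 0 h in 9311. Its rise was 102-fold in DC90 (interval 86.2 to 122) and 179.8-fold in 9311 (interval 153 to 213), intervals that do not overlap.

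BGIOSGA005218 had 199 FPKM at 36 h and 0.537, from 2 reads, at 0 h in DC90, and 134 at 36 h and 1.87, from 7 reads, at 0 h in 9311. Its ratio of 369.7 in DC90 has a counting interval of 102 to 3059, so the exact size is poorly known. BGIOSGA002368 had 237 FPKM at 36 h and 3.26 at 0 h in DC90, and 425 at 36 h and 3.89 at 0 h in 9311. BGIOSGA010984 had 182 FPKM at 36 h and 2.97 at 0 h in DC90, and 436 at 36 h and 2.95 at 0 h in 9311. In both, the lines were close before chilling and DC90 was the lower at 36 h. BGIOSGA025321 had 303 FPKM at 36 h and 4.68 at 0 h in DC90, and 409 at 36 h and 5.19 at 0 h in 9311. BGIOSGA025955 had 92.2 FPKM at 36 h and 1.67 at 0 h in DC90, and 207 at 36 h and 1.01 at 0 h in 9311, a rise of 55.2-fold in DC90 (interval 39.1 to 80.4) and of 206-fold in 9311 (interval 133 to 338).

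Reaching 8-fold was more frequent in 9311. Of the 22919 identifiers, 0.694% (159) rose at least 8-fold in DC90 and 1.21% (277) did so in 9311. The 136 shared ones are 85.5% of the DC90 list and 49.1% of the 9311 list. The 23 identifiers past 8-fold in DC90 and not in 9311 had a median log2 ratio of 2.56 in 9311. The 141 past it in 9311 and not in DC90 had a median of 2.50 in DC90, where 113 of them still reached 4-fold. Most identifiers that missed the list by one line had therefore moved the same way in that line. Across the 136 genes Pearson's r between the log2 ratios of DC90 and 9311 was 0.75 and Spearman's rho 0.62, over genes, which are not independent replicates, and within a range that the choice cut at 3.

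**Figure D2:**
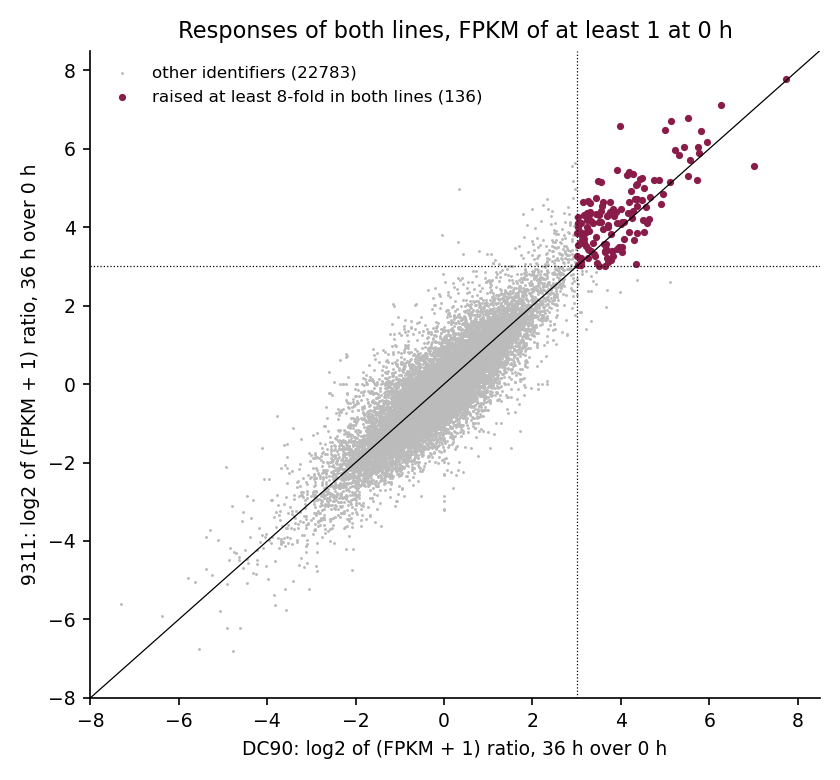
Log2 of the (FPKM + 1) ratio of 36 h over 0 h in DC90 (horizontal) and in 9311 (vertical) for the 22919 BGIOSGA identifiers with at least 1 FPKM in either 0 h library, 1 point each. The 136 chosen genes (dark) fill the corner above both dotted lines at 3, and 97 of them lie above the diagonal, where the ratio was smaller in DC90.

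The threshold cuts through a continuous range. Just inside it, the smaller of the 2 log2 ratios was 3.00 in BGIOSGA011677 and BGIOSGA001791, 3.01 in BGIOSGA009470 and 3.02 in BGIOSGA032104. Just outside it stood BGIOSGA037922 at 3.00 (2.999 before rounding), BGIOSGA019943 at 2.98 and BGIOSGA034766 and BGIOSGA028468 at 2.97. BGIOSGA011677 had 213 FPKM at 36 h and 25.8 at 0 h in DC90, and 297 at 36 h and 19.5 at 0 h in 9311. BGIOSGA037922, which was not taken, had 42.7 FPKM at 36 h and 4.36 at 0 h in DC90, and 52.8 at 36 h and 5.74 at 0 h in 9311. BGIOSGA032104 had 52.5 FPKM at 36 h and 5.61 at 0 h in DC90, and 77.7 at 36 h and 7.19 at 0 h in 9311. The counting intervals of BGIOSGA011677 (6.68 to 10.3 in DC90) and BGIOSGA037922 (6.92 to 12.5 in 9311) both include 8, so their sides of the threshold are not told apart by reads.

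The study set a tolerant line beside its sensitive parent, and the line differences of the 136 genes were mostly downward in DC90 at 36 h. At that time 22 genes were at least 2-fold lower in DC90 than in 9311 on the log2(FPKM + 1) scale, or 16.2%, and 0 were at least 2-fold higher. Among all BGIOSGA identifiers with at least 1 FPKM in either 36 h library, 3.61% were lower and 1.82% higher. With no replicate in either line no test was made, so neither an adjusted nor an unadjusted p-value goes with the count of 0. Before chilling, 8 of the 136 genes were at least 2-fold lower in DC90, or 5.88%, and 2 were higher, or 1.47%, against 1.87% lower and 1.59% higher among all identifiers measured at 0 h. The levels at both times were used by the choice, so the 36 h counts too describe the chosen genes. In 9311 alone 11 genes reached 1 FPKM at 0 h, and in DC90 alone 7 did, so the 0 h counts are partly set by the level condition. The 0 h counts also depend on the pseudocount, which shrinks ratios of low values. With 0.1 in place of 1, 24 genes were lower and 0 higher at 36 h, and 15 were lower and 6 higher at 0 h. The shares over all identifiers are given for a pseudocount of 1 only and cannot be set beside these counts. The median log2 ratio of DC90 to 9311 was -0.50 at 36 h (quartiles -0.90 and 0.02) and -0.07 at 0 h (quartiles -0.33 and 0.23).

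Smaller differences between the lines lay mostly in the same direction. Of the 136, 99 were lower in DC90 at 36 h by any amount, or 72.8%, where 42% of all identifiers were. At 0 h the count was 79, or 58.1%, where 48.5% of all identifiers were. The level condition of the choice enters this count as well. Counting intervals of the read ratio lay wholly below 1 for 88 genes at 36 h, or 64.7%, and wholly above 1 for 27, or 19.9%. Over the 22919 identifiers 15.4% lay below and 21.9% above. At 0 h, 20 lay below, or 14.7%, and 11 above, or 8.09%. The shares over all were 16.8% below and 16.6% above. The genes had far more reads at 36 h than at 0 h, which narrows the intervals at 36 h. Their median reads at 36 h were 686.5 in DC90 and 968 in 9311, against 148 in DC90 and 147 in 9311 for the 22919 identifiers. At 0 h the genes had 37.5 in DC90 and 40 in 9311, against 165 in DC90 and 166 in 9311. The shares therefore do not rest on equal reads at either time. On the log2(FPKM + 1) scale the lines were within 1.5-fold of each other for 70 genes at 36 h, or 51.5%, where 83.2% of all identifiers were. At 0 h they were so for 112, or 82.4%, where 88.2% of all identifiers were.

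**Figure D3:**
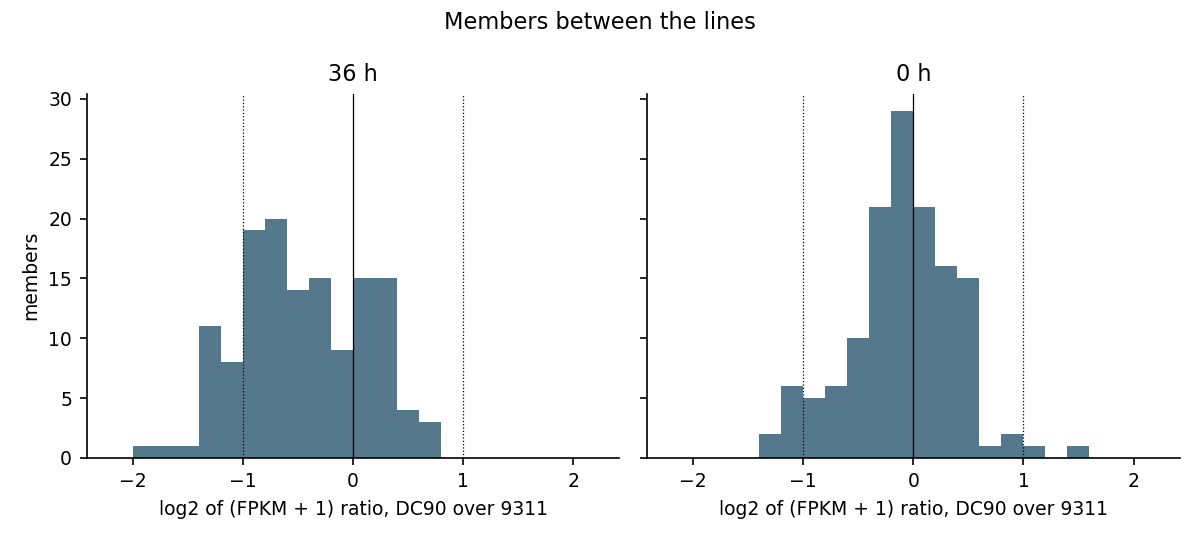
Number of the 136 genes (vertical axis) by log2 of the (FPKM + 1) ratio of DC90 over 9311 (horizontal axis) at 36 h (left) and at 0 h (right), with dotted lines at 2-fold. At 36 h the median is -0.50, with 22 genes at or beyond 2-fold lower and 0 at 2-fold higher; at 0 h the median is -0.07, with 8 and 2.

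BGIOSGA033416, BGIOSGA017506, BGIOSGA028970 and BGIOSGA035720 were furthest below 9311 in DC90 at 36 h. BGIOSGA017506 had 70.3 FPKM at 36 h and 6.92 at 0 h in DC90, and 227 at 36 h and 10.5 at 0 h in 9311, a read ratio of DC90 to 9311 of 0.309 at 36 h with an interval of 0.276 to 0.347. BGIOSGA028970 had 16.1 FPKM at 36 h and 0.801 at 0 h in DC90, and 46.4 at 36 h and 1.29 at 0 h in 9311. BGIOSGA035720 had 11.7 FPKM at 36 h and 0.400, from 4 reads, at 0 h in DC90, and 31.9 at 36 h and 1.29, from 13 reads, at 0 h in 9311. BGIOSGA033416 had 7.45 FPKM in DC90 and 28.9 in 9311 at 36 h and was listed at 0 in DC90 and at 1.03 in 9311 at 0 h. In these 4 genes DC90 was the lower line at both times, but at 0 h the counting interval of the ratio excluded 1 in BGIOSGA017506 alone. BGIOSGA033416, BGIOSGA028970 and BGIOSGA035720 met the level condition at 0 h through 9311 alone. With DC90 under 1 FPKM, the choice itself required the higher 0 h level in 9311, so their 0 h order is no separate observation.

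At the other end, the highest ratios of DC90 to 9311 at 36 h on the log2(FPKM + 1) scale stayed under 2-fold. BGIOSGA008373 had 82.4 FPKM at 36 h and 3.22 at 0 h in DC90, and 48.6 at 36 h and 2.88 at 0 h in 9311, a read ratio of 1.696 at 36 h with an interval of 1.58 to 1.82. BGIOSGA030996 had 149.7 FPKM at 36 h and 4.04 at 0 h in DC90, and 95.4 at 36 h and 3.00 at 0 h in 9311. BGIOSGA000076 had 175 FPKM at 36 h and 2.35 at 0 h in DC90, and 112 at 36 h and 2.04 at 0 h in 9311. BGIOSGA005218, described above, was the fourth on that scale, at 0.57, with a read ratio of 1.49 at 36 h.

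Line differences before chilling were large for a few genes and did not always last. BGIOSGA006395 had 1.60 FPKM in DC90 and 5.30 in 9311 at 0 h, a read ratio of 0.302 with an interval of 0.168 to 0.519. At 36 h it had 51.9 FPKM in DC90 and 51.2 in 9311, levels that agreed within counting error. BGIOSGA021712 was listed at 0 in DC90 and had 1.64 FPKM, from 4 reads, in 9311 at 0 h, and had 14.2 FPKM in DC90 and 27.9 in 9311 at 36 h. It met the level condition through 9311 alone, so its 0 h order was required by the choice. BGIOSGA016579 had 43.5 FPKM at 36 h and 3.96 at 0 h in DC90, and 30.6 at 36 h and 1.43 at 0 h in 9311. Its 0 h values rest on 11 reads in DC90 and 4 in 9311, and the interval of their ratio, 0.821 to 11.9, includes 1.

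BGIOSGA034313 changed order between the lines. It had 402 FPKM at 36 h and 24.4 at 0 h in DC90, and 831 at 36 h and 7.68 at 0 h in 9311. DC90 was the higher line before chilling, by a read ratio of 3.18 (interval 2.01 to 5.21), and the lower at 36 h, by a ratio of 0.483 (interval 0.450 to 0.518). Its rise was 16.4-fold in DC90 and 108-fold in 9311, and its difference of log2 ratios, -2.60, was the furthest from 0 among the 136.

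The difference of the 2 responses, DC90 minus 9311 in log2 ratio, had a median of -0.35 over the 136 genes (quartiles -0.78 and 0.05), and 0.06 over the 22919. Both responses were used by the choice, which held each at or above the threshold and so limits their difference. The values over all identifiers carry no condition on the responses. The contrasts with them therefore describe the chosen genes and were not tested. The difference was at least 2-fold downward in DC90 for 22 genes, or 16.2%, and at least 2-fold upward for 2, or 1.47%. Over the 24192 BGIOSGA identifiers with at least 1 FPKM in any library it was 4.51% downward and 3.75% upward. The rise was the smaller one in DC90 by any amount in 97 of the 136, or 71.3%, where 44.4% of all identifiers had the smaller log2 ratio in DC90. Counting intervals of the responses lay apart, with DC90 smaller, in 28 genes, or 20.6%, and, with DC90 larger, in 8, or 5.88%. The shares over all were 8.56% with DC90 smaller and 11.5% with DC90 larger. Of the 22 genes with the response 2-fold downward, 13 were also at least 2-fold lower in DC90 at 36 h; these 2 measures share the 36 h libraries. The 13 are 9.56% of the 136, and 1.52% of the 22919 identifiers met both conditions.

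After BGIOSGA034313, the responses furthest downward in DC90 were those of BGIOSGA031385, BGIOSGA032302, BGIOSGA025955 and BGIOSGA028014. BGIOSGA031385 had 109 FPKM at 36 h and 8.76 at 0 h in DC90, and 234 at 36 h and 5.52 at 0 h in 9311. BGIOSGA032302 had 63.7 FPKM at 36 h and 4.56 at 0 h in DC90, and 147 at 36 h and 3.19 at 0 h in 9311. Like BGIOSGA034313, these 2 genes were above 9311 in DC90 before chilling and below it at 36 h, and their counting intervals excluded equality at both times. The largest responses in DC90 relative to 9311 were 1.47 in BGIOSGA005218 and 1.29 in BGIOSGA006395, followed by 0.65 in BGIOSGA004105, 0.64 in BGIOSGA009470 and 0.63 in BGIOSGA008373. BGIOSGA004105 had 51.5 FPKM at 36 h and 2.24 at 0 h in DC90, and 40.4 at 36 h and 3.02 at 0 h in 9311. BGIOSGA009470 had 144 FPKM at 36 h and 10.6 at 0 h in DC90, and 119 at 36 h and 13.9 at 0 h in 9311.

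Some genes behaved nearly alike in the lines. BGIOSGA001545 had 207 FPKM at 36 h and 15.9 at 0 h in DC90, and 212 at 36 h and 16.8 at 0 h in 9311. BGIOSGA003944 had 159 FPKM at 36 h and 8.83 at 0 h in DC90, and 163 at 36 h and 8.41 at 0 h in 9311. Both were picked as examples after their values were seen, as the 2 members with line ratios within 0.1 in log2 at both times.

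Weaker and newly started responses were set beside the 136 genes. These sets too were chosen on the responses of both lines, which limits the difference between those responses. For 1836 identifiers raised at least 2-fold but under 8-fold in both lines, the median log2 ratio of DC90 to 9311 at 36 h was -0.09, with 3.21% at least 2-fold lower in DC90 and 0.327% higher. The first share is near the 3.61% of all identifiers and the second below their 1.82%. DC90 had the smaller response in 59.4% of them. For 65 identifiers raised at least 8-fold in both lines from under 1 FPKM in both 0 h libraries, the median was -0.49, with 18.5% lower and 1.54% higher, and 67.7% had the smaller response in DC90. These 65 had median levels of 18.0 FPKM in DC90 and 27.0 in 9311 at 36 h, below the 77.2 in DC90 and 97.8 in 9311 of the 136 genes.

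The line ratio was also described by size of response, with identifiers sorted by the mean of both lines' log2 ratios. Of the 22919 identifiers, those with a mean below -1 were left out. The median log2 ratio of DC90 to 9311 at 36 h was 0.08 for mean responses of -1 to 1, -0.09 for 1 to 2, -0.31 for 2 to 3, -0.67 for 3 to 4, -0.58 for 4 to 5 and -0.50 for 5 and over. The last class holds 19 identifiers, all of them among the 136. At 0 h the medians of the same classes lay between -0.07 and 0.10.

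**Figure D4:**
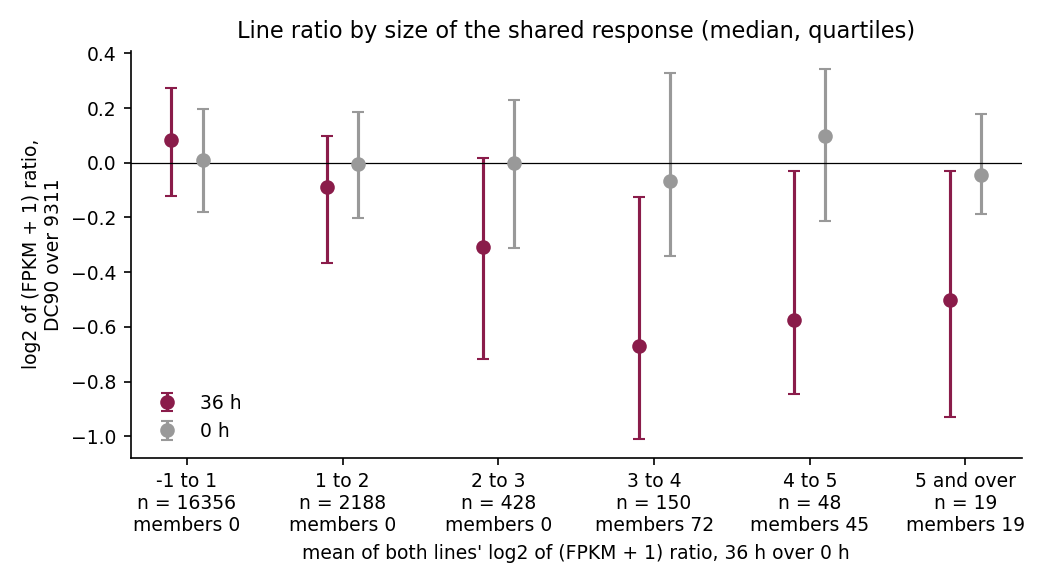
Log2 of the (FPKM + 1) ratio of DC90 over 9311 (vertical axis) at 36 h (dark) and 0 h (grey) for identifiers grouped by the mean of both lines' log2 ratios of 36 h over 0 h (horizontal axis); points are medians over identifiers, bars reach from quartile to quartile, and n is the number of identifiers. At 36 h the medians lie at -0.31 and below from a mean response of 2 upward, while at 0 h they stay between -0.07 and 0.10. Identifiers with a mean response below -1 are not shown.

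Coding length was not itself a condition of the choice, although FPKM is a value per length. The 136 genes had a median recovered length of 798 bases (quartiles 416 and 1328), against 1035 bases (quartiles 603 and 1572) for the 22919 identifiers. Identifiers raised at least 2-fold but under 8-fold had a median of 1133 bases and those raised from under 1 FPKM 606 bases. Recovered lengths are the smallest possible and can be too short, more readily where reads are few. Those raised from under 1 FPKM had a median of 1 read at 0 h in DC90 and 1 in 9311. The shortest of the 136 genes were BGIOSGA021948 and BGIOSGA027173, each at 159 bases, and the longest was BGIOSGA012074 at 4464.

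Some of the genes stand next to each other in identifier number, which was also not used in the choice. A chromosome position is not read from the number here. Of the 136, 20 had another of the 136 within 5 numbers and 11 had one at the next number. Among the 805 of the 22919 identifiers that lie within 5 numbers of one of the genes, 2.48% were members themselves, against 0.593% of all 22919. The 20 genes formed 9 runs, 8 of them with 2 genes and 1 with 4. Genes in such runs may have near-identical sequences, in which case their reads could have been split between them; the sequences were not compared here.

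The run of 4 consists of BGIOSGA028011, BGIOSGA028013, BGIOSGA028014 and BGIOSGA028015, all with coding lengths between 231 and 318 bases. BGIOSGA028011 had 56.5 FPKM at 36 h and 1.88 at 0 h in DC90, and 116 at 36 h and 3.46 at 0 h in 9311. BGIOSGA028013 had 211 FPKM at 36 h and 5.64 at 0 h in DC90, and 409 at 36 h and 3.64 at 0 h in 9311. BGIOSGA028014 had 53.2 FPKM at 36 h and 2.59 at 0 h in DC90, and 123.5 at 36 h and 1.83 at 0 h in 9311. All 4 were lower in DC90 than in 9311 at 36 h, by read ratios between 0.431 and 0.533. The last of them, BGIOSGA028015, had 68.3 FPKM at 36 h and 2.55 at 0 h in DC90, and 128 at 36 h and 2.17 at 0 h in 9311. Between them, BGIOSGA028012 gave 3 reads at 36 h and 0 at 0 h in DC90, and 5 at 36 h and 0 at 0 h in 9311.

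In 8 of the 9 runs every member was lower in DC90 at 36 h by any amount. Of the 136 genes taken singly 72.8% were lower, which is an unlike measure, and runs were not compared with single genes. In these 8 runs the intervals of BGIOSGA001545 (0.898 to 1.06) and BGIOSGA027962 (0.627 to 1.15) include 1. The remaining run was that of BGIOSGA005261 and BGIOSGA005263, with log2 line ratios of -0.03 and 0.13. BGIOSGA005261 had 141 FPKM in DC90 and 144 in 9311 at 36 h, and BGIOSGA005263 had 533 in DC90 and 486 in 9311. BGIOSGA001265 had 27.0 FPKM at 36 h and 1.92 at 0 h in DC90, and 70.4 at 36 h and 1.80 at 0 h in 9311. BGIOSGA001266 had 28.2 FPKM at 36 h and 1.71 at 0 h in DC90, and 58.8 at 36 h and 1.95 at 0 h in 9311. Both began at nearly the same level in the lines and ended lower in DC90, with read ratios of 0.384 for BGIOSGA001265 and 0.479 for BGIOSGA001266. BGIOSGA014421 had 38.5 FPKM at 36 h and 1.19 at 0 h in DC90, and 94.8 at 36 h and 1.26 at 0 h in 9311. BGIOSGA014422 had 326 FPKM at 36 h and 10.2 at 0 h in DC90, and 424 at 36 h and 10.5 at 0 h in 9311. The gap was wider in BGIOSGA014421, with a read ratio at 36 h of 0.406 (interval 0.362 to 0.456) beside 0.769 (interval 0.735 to 0.803) in BGIOSGA014422.

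BGIOSGA002871 had 24.7 FPKM at 36 h and 1.504 at 0 h in DC90, and 48.9 at 36 h and 1.92 at 0 h in 9311. BGIOSGA002872, with a coding length of 4350 bases, had 88.5 FPKM at 36 h and 4.57 at 0 h in DC90, and 147 at 36 h and 5.71 at 0 h in 9311. In both, 9311 was the higher line at 36 h. BGIOSGA033182 had 299 FPKM at 36 h and 8.66 at 0 h in DC90, and 385 at 36 h and 12.5 at 0 h in 9311. BGIOSGA033183 had 181 FPKM at 36 h and 6.27 at 0 h in DC90, and 291 at 36 h and 14.8 at 0 h in 9311. Here DC90 was below 9311 before chilling too, with read ratios at 0 h of 0.692 for BGIOSGA033182 and 0.423 for BGIOSGA033183. The same held for BGIOSGA033314 and BGIOSGA033316, where the 0 h read ratios were 0.370 for BGIOSGA033314 and 0.452 for BGIOSGA033316.

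Neighbouring numbers did not always move together. In the run of BGIOSGA001545 and BGIOSGA001549, the identifier that follows BGIOSGA001545 in number, BGIOSGA001546, had 5.42 FPKM at 36 h and 149.6 at 0 h in DC90, and 6.14 at 36 h and 184 at 0 h in 9311. It thus went down by 4.55 in DC90 and by 4.69 in 9311 on the log2(FPKM + 1) scale. BGIOSGA005262, between BGIOSGA005261 and BGIOSGA005263, had 241 FPKM at 36 h and 416 at 0 h in DC90, and 177 at 36 h and 225 at 0 h in 9311. These 2 identifiers are not among the 136 and were chosen after their values were seen.

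**Figure D5:**
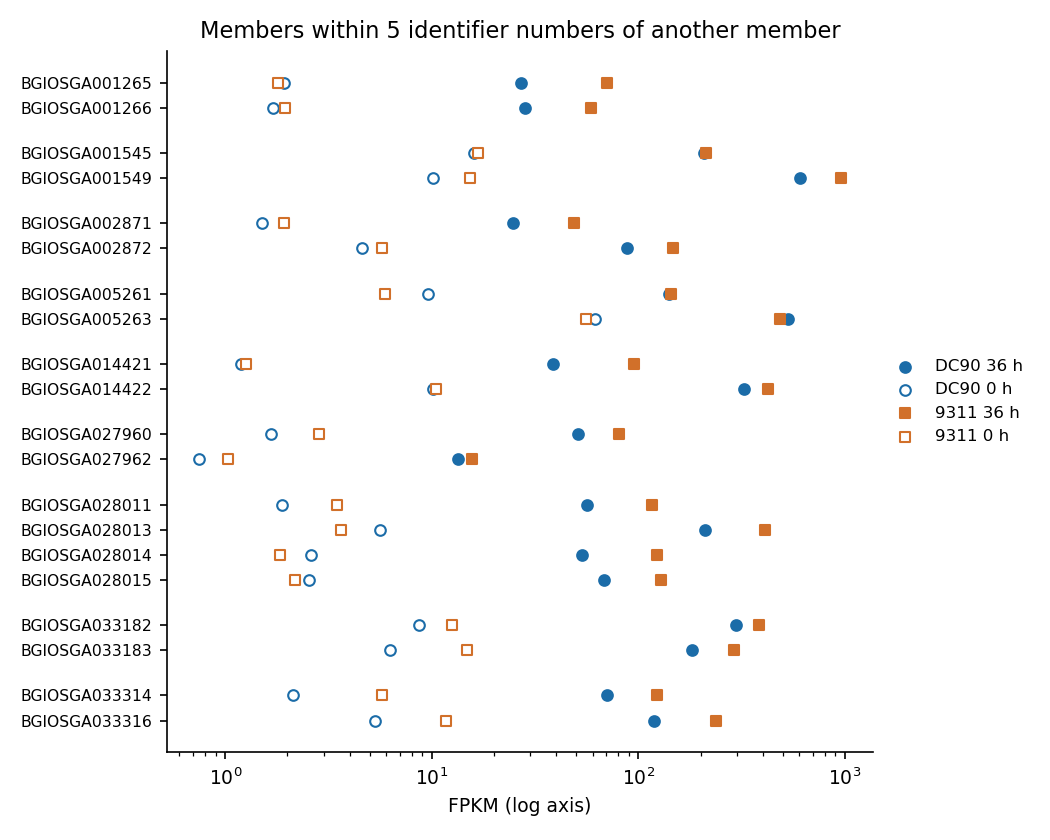
FPKM (log axis) of the 20 genes with another of the 136 within 5 identifier numbers, grouped by run down the page; filled circles are DC90 at 36 h, open circles DC90 at 0 h, filled squares 9311 at 36 h and open squares 9311 at 0 h. In the run of 4 (BGIOSGA028011 to BGIOSGA028015) all filled squares lie at 116 FPKM or above, to the right of the filled circles of the same genes.

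In 3 blocks of identifier numbers, members were too few to read a difference from the 0.593% of all 22919 identifiers. The block from BGIOSGA036041 to BGIOSGA037534 held 3 of the 136 genes among 825 identifiers with the same level condition, or 0.364%. The block from BGIOSGA012710 to BGIOSGA013206 held 1 among 257, or 0.389%, and that from BGIOSGA010224 to BGIOSGA010354 held 0 among 70.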

How the data were processed

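Whole seedlings of 2 rice lines were sampled at 2 times, and the columns of the table were matched to the 4 libraries by sample title. The values are FPKM as the authors deposited them; per the submitters' processing notes HTSeq 0.6.1 was among the tools. The name of an aligner, a genome build or an annotation is not given in the sources used here. RNA input to each library was 3 µg, per the labels' protocols.

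Library totals, lengths and reads were recovered from the steps of the FPKM values. The smallest length up to 30000 bases that made the reads of all libraries whole, within a relative tolerance of 1e-07, was found for 30016 of 30016 BGIOSGA identifiers above 0. Since reads and length can share a factor, reads and lengths are the smallest possible and intervals can be too wide. Lengths were multiples of 3 for 135 of the 136 genes and are called coding lengths. Ratios "of reads" are per library total, with exact Clopper-Pearson intervals at 95%, and cover counting error only. A value of 0 was set at 3 reads for a bound. Log2 ratios use FPKM + 1 and understate changes of low values. Work was done in Python 3.11.15 with scipy 1.17.1, numpy 2.4.6 and pandas 2.3.3, and recovery and the rule were tested on simulated data. With 1 library per group no count model or test was run.

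The members, the rule and the comparisons were chosen with earlier results of these data known. Genes named by rule had the highest levels at 36 h (8) or 0 h (5) or the highest mean response (8). The rule also took the 5 largest response differences in each direction. It took the 4 largest line ratios in each direction at 36 h and the 2 largest in each at 0 h. Adjacent numbers and the 4 nearest each side of the threshold were taken too. Outside the rule, the text names other genes in or between the runs, the shortest and longest genes, and examples marked as picked after their values were seen. Alternatives changed the pseudocount, scaling, level filter, threshold and window. The 47764 EPlOING identifiers were not analysed here.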

Additional observations from a re-analysis of the deposited data

How the results depend on the processing

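No paired analysis was possible because each line and time has 1 library, and for the same reason no replicate could be left out. The number of genes taken stayed between 109 and 201 under the other pseudocounts, scalings, level conditions at or below 1 FPKM, and read conditions. It was 62 with at least 5 FPKM in either 0 h library, 493 at 4-fold and 46 at 16-fold. With median-of-ratios factors 135 of the 136 were taken again, and with equal FPKM sums 134. The median log2 response lay between 3.68 and 4.22 in DC90 and between 4.12 and 4.57 in 9311. Genes at least 2-fold lower in DC90 at 36 h numbered 22 to 32 under the other pseudocounts and scalings, 63 at 1.5-fold and 7 among genes with at least 5 FPKM at 0 h; those higher numbered 0, and 3 at 1.5-fold. At 0 h, the lower count was 15 with a pseudocount of 0.1, 13 with 0.5, 19 at 1.5-fold and 5 with at least 5 FPKM, and the higher count was 6 with a pseudocount of 0.1, 1 with equal sums, 5 at 1.5-fold and 1 with at least 5 FPKM. For the difference of responses, the upward count was 6 with a pseudocount of 0.1, 8 at 1.5-fold and 1 with at least 5 FPKM, and the downward count was 52 at 1.5-fold and 9 with at least 5 FPKM. Genes with a neighbour numbered 11 within 1 number, and 96 within 5 numbers when 4-fold sufficed and 493 genes were taken. No shares over all identifiers are given for these alternatives, so their counts describe the chosen genes only. Stricter levels and wider thresholds change how many genes can count; the other causes were not tested. Median-of-ratios factors moved the line ratio at 36 h of identifiers with at least 5 FPKM in all 4 libraries by -0.08 in log2, and equal sums moved the DC90 response by 0.12. Depth limits the 0 h values most, at a median of 37.5 reads in DC90 and 40 in 9311.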
